A study of Mus musculus with 9 samples.

Results

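A graded trend was sought across ventricular RNA of 9 female mice, in which a transgenic receptor for insulin-like growth factor 1 (IGF1R) was combined with none, an active or a blocking form of the lipid kinase PI3K. All 9 arrays of the series entered it, ordered by a score of -1 for IGF1R-dnPI3K mice, 0 for IGF1R mice and 1 for IGF1R-caPI3K mice. A probe set, the array's unit for measuring a transcript, was called graded when the signals of the 3 groups stood in this order, or in its reverse, with no overlap between neighbouring groups. Of 8132 probe sets with a signal above 100 on at least 3 arrays, 53 were graded (0.652%). In 32 the signal was higher at each step from IGF1R-dnPI3K to IGF1R-caPI3K (0.394%), and in 21 it was lower at each step (0.258%). The score places the groups at equal distances, which is an assumption, since PI3K activity was not measured on these arrays.

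All mice were 3 months old and carried the IGF1R transgene, and each array held total RNA from both ventricles of 1 mouse. The 3 IGF1R mice had this transgene alone. The 3 IGF1R-caPI3K mice also had a constitutively active form of p110, the catalytic subunit of PI3K, and the 3 IGF1R-dnPI3K mice had a dominant negative form of p110. The promoter that drives each transgene and the number of founder lines are not stated in the labels. Mice with a PI3K transgene alone and non-transgenic littermates, which the labels name, were not analysed here, so every value is relative to hearts with the IGF1R transgene.

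IGF1 binds its receptor, a tyrosine kinase, and the activated receptor recruits PI3K. PI3K makes the membrane lipid PIP3, which brings the kinase Akt to the membrane. Akt in turn promotes protein synthesis through mTOR and keeps FoxO transcription factors out of the nucleus, and in the heart this route is known for its part in physiological growth.

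The arrays differed in several measures, none of which was graded along the score, though some kept the outer groups apart. Median signals were 161 to 186 in the IGF1R-dnPI3K group, 191 to 197 in the IGF1R group and 176 to 186 in the IGF1R-caPI3K group. The 3' to 5' signal ratio of CreX, a control RNA added during sample processing, was 1.05 to 1.26 on IGF1R arrays, 1.79 to 1.83 on IGF1R-dnPI3K arrays and 1.74 to 1.89 on IGF1R-caPI3K arrays. The same ratio for Gapdh, which the heart's own RNA supplies, was 0.747 to 0.818 on IGF1R arrays and 0.843 to 0.943 on the others. Spread within a group was widest among IGF1R-dnPI3K arrays (median SD over probe sets, in log2, of 0.264, with 0.167 for IGF1R and 0.159 for IGF1R-caPI3K), and IGF1R-dnPI3K replicate 3 had the lowest mean correlation to the other arrays across probe sets (0.927, against 0.948 to 0.956). Cardiomyocyte markers summed to 154821 to 224623 on every array, with none of the 10 present at background, so the labelled tissue matched its defining genes. Background here is 63.9, the highest signal of 9 Y-linked probe sets in these female mice.

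IGF1R stood between the other groups in a minority of the probe sets that separated. The groups had no overlap at all in 332 probe sets, and IGF1R stood in the middle in 53 of them (16.0%). IGF1R-caPI3K stood in the middle in 241 (72.6%), 112 with IGF1R highest and 129 with IGF1R lowest, and IGF1R-dnPI3K in 38 (11.4%). IGF1R was therefore at an end of the order in 84.0% of the probe sets that separated. The IGF1R arrays are also those with the different CreX and Gapdh ratios, so that the IGF1R genotype and the processing of those arrays cannot be told apart in this count.

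**Figure D1:**
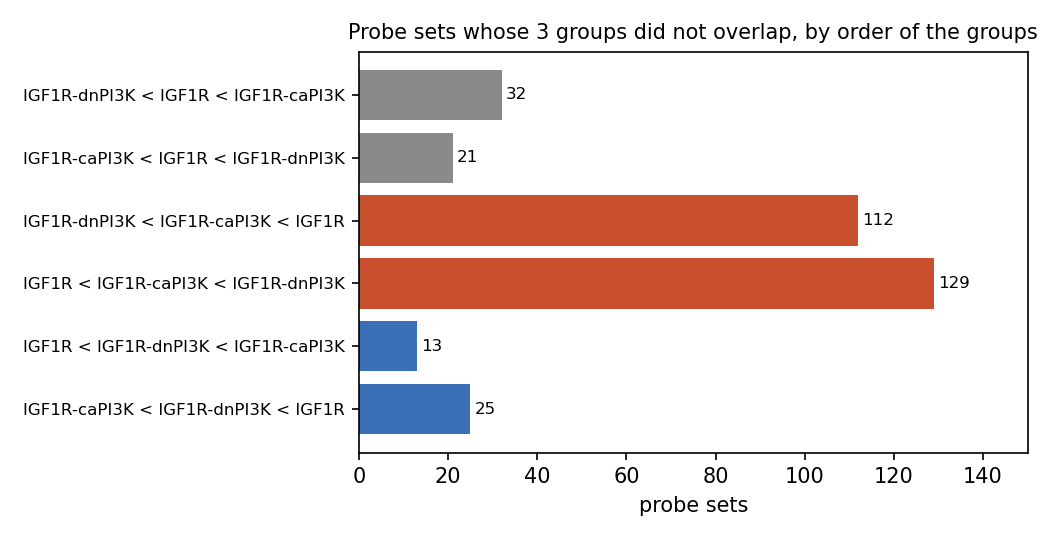
Number of kept probe sets in each of the 6 possible orders of the groups with no overlap, from the lowest group to the highest; bar colour gives the middle group. The orders with IGF1R in the middle hold 32 and 21 probe sets, against 112 and 129 for those with IGF1R-caPI3K in the middle.

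A linear slope of log2 signal on the score was tested for every probe set with limma and Benjamini-Hochberg adjustment. One unit of slope is the log2 change per step of the score, so the change from IGF1R-dnPI3K to IGF1R-caPI3K is 2 slopes. The slope passed an adjusted p of 0.05 in 17 of 8132 probe sets (0.209%), 13 with higher signal toward IGF1R-caPI3K (0.160%) and 4 with lower (0.0492%). Of these 17, 15 were also graded; the slope and the graded order use the same 9 arrays and are not independent of each other. The other two were Serpinf1, an anti-angiogenic secreted protein, and an unnamed probe set. Over all kept probe sets the median slope was 0.02, and 56.7% of slopes were positive. The slopes of 11 of the 32 members graded higher and of 4 of the 21 graded lower passed. At an unadjusted p of 0.05, 32 and 20 of them did, as did 10.3% of all kept probe sets. The members were chosen by the order of the same values, which makes a low p likely, so these counts test nothing. A count of probe sets without overlap between the outer groups alone was much larger, with 878 higher in IGF1R-caPI3K (10.8%) and 696 lower (8.56%), so that it was the place of IGF1R that left 53.

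Which probe sets were graded depended on how the arrays were scaled. Of the 32 graded higher, 21 were also graded after quantile normalization and 14 after scaling to a common median, and 13 were graded under all 3 scalings. Of the 21 graded lower, 12, 7 and 7 were. Myl1, Casq1, Hspa1a, P4ha1, P4ha2, Col1a2, Qsox1, Slc7a7, Capg, Uchl1 and Fhl1 were among the 13, and Ces1d, Acss1, Tpd52l1, Ifitm2, Hint2 and Chka among the 7. The count of 17 passing slopes was 49 without IGF1R-dnPI3K replicate 1 and 3 without replicate 2 of that group. It was 7 without IGF1R-dnPI3K replicate 3, 7, 12 and 8 without IGF1R replicates 1, 2 and 3, and 3, 4 and 11 without IGF1R-caPI3K replicates 1, 2 and 3. Myl1 passed with each of the 9 arrays left out in turn. Tfpi passed in 7 of the 9 fits, failing without IGF1R-caPI3K replicate 1 and without IGF1R-dnPI3K replicate 2. Ces1d and Casq1 passed in 6, failing also without IGF1R-caPI3K replicate 2, and Col1a2 in 5, failing in those 3 and without IGF1R-dnPI3K replicate 3. Leaving out most single arrays ended the other calls: Hspa1l and Acss1 passed only without IGF1R replicate 2 or IGF1R-dnPI3K replicate 1, and Hspa1a and Fhl1 only without IGF1R-caPI3K replicate 3 or IGF1R-dnPI3K replicate 1. P4ha1 passed only without IGF1R-dnPI3K replicate 1, Inpp5j only without IGF1R replicate 2, and Wfs1 in none of the 9 fits, in which its adjusted p ran from 0.0603 to 0.196.

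The mouse numbers in the labels fall into 3 series, whose meaning is not given. One series held 1 mouse of each group, another held 2 IGF1R and 2 IGF1R-caPI3K mice, and the last held 2 IGF1R-dnPI3K mice. For these 2 IGF1R-dnPI3K mice, genotype and series cannot be told apart. With a block, the distance of IGF1R-dnPI3K from the other groups rests on its 1 mouse in the shared series. With the series as a block, 1 of the 8132 slopes passed, that of an unnamed probe set described below, and 519 had an unadjusted p under 0.05, against 840 without the block. Within the series of all 3 groups, with 1 mouse each, the median slope was 0.38 for members graded higher and -0.31 for those graded lower, against 0.38 and -0.33 over all arrays. The graded rule fixes the sign of these within-series values, so they show size alone.

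Genes of skeletal muscle stood among the members with the largest slopes. Myl1, an essential myosin light chain of fast skeletal muscle that the atria and the embryonic heart also make, had the lowest adjusted p among named genes. Its signal was 1346, 2189 and 2419 on IGF1R-dnPI3K arrays, 6705, 7207 and 6118 on IGF1R arrays and 10107, 10603 and 11898 on IGF1R-caPI3K arrays. All 3 groups were far apart, and the lowest IGF1R array was over the highest IGF1R-dnPI3K array by more than the spread within either. Myl1 rose with a slope of 1.25 ± 0.13 (SE, adjusted p = 0.00382, limma), a 5.63-fold difference between the outer groups, and 71.8% of that log2 span lay below the IGF1R mean.

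Casq1, the calcium-binding protein in the sarcoplasmic reticulum of fast skeletal muscle, followed the same order. Its signal was 1751, 1711 and 2954 on IGF1R-dnPI3K arrays, 5592, 4473 and 5422 on IGF1R arrays and 6736, 7298 and 6592 on IGF1R-caPI3K arrays. IGF1R-dnPI3K replicate 3 was the highest of its group and still below all IGF1R arrays. Casq1 rose with a slope of 0.87 ± 0.12 (adjusted p = 0.0182), 3.32-fold between the outer groups. Blocking on mouse number series, the slopes of Myl1 and Casq1 were 1.20 (adjusted p = 0.120) and 0.81 (adjusted p = 0.486).

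Acta1, the skeletal form of alpha actin and a gene of the fetal heart program, was graded without passing the slope test. Its signal was 8299, 7753 and 14374 on IGF1R-dnPI3K arrays, 16992, 15394 and 16707 on IGF1R arrays and 20211, 20158 and 18216 on IGF1R-caPI3K arrays. IGF1R-dnPI3K replicate 3 was well above its group and close to the lowest IGF1R array, and Acta1 was not graded under the other scalings. Its slope was 0.50 ± 0.11 (adjusted p = 0.0997), with the IGF1R mean at 74.6% of the span.

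Fhl1, a LIM-domain protein of striated muscle that is known to rise in hypertrophy, was graded on both of its kept probe sets. The first read 1894, 1692 and 1908 on IGF1R-dnPI3K arrays, 2612, 2529 and 2547 on IGF1R arrays and 3358, 3178 and 2764 on IGF1R-caPI3K arrays, and rose with a slope of 0.38 ± 0.06 (adjusted p = 0.0398). The second, brighter one averaged 4381 ± 176 (SD, n = 3), 4747 ± 134 and 6319 ± 857 in the same order of groups, with a slope of 0.26 ± 0.07 (adjusted p = 0.165). On the first the larger step lay below IGF1R, and on the second above it, with the IGF1R mean at 64.3% and 22.3% of the span. The name of the first probe set marks a possible shared target, so its signal may not be of Fhl1 alone.

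Windows of 250 bases before the start of Myl1, Casq1 and Acta1 are shown because these muscle genes moved together and each window holds the E-box letters CAGCTG, the core bound by myogenic factors of the MyoD family. They come from RefSeq on GRCm38.p6, are on the minus strand and read 5′ to 3′ toward the start: Myl1 at chr1:66945057-66945306, Casq1 at chr1:172219896-172220145 and Acta1 at chr8:123894776-123895025. Capitals mark the E-box, the TATA box (TATAAA, or TTTATA when read from the other strand) and, in Acta1, the CArG box, the site of serum response factor.
Myl1 promoter: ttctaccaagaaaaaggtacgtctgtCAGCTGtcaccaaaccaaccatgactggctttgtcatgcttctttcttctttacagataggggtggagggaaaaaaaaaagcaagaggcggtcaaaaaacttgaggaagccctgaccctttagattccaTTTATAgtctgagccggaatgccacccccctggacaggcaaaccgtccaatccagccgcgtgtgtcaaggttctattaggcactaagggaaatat
Casq1 promoter: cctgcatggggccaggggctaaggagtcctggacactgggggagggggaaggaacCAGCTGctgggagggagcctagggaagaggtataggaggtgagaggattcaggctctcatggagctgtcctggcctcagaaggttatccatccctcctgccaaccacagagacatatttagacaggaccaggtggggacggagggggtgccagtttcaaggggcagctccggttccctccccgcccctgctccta
Acta1 promoter: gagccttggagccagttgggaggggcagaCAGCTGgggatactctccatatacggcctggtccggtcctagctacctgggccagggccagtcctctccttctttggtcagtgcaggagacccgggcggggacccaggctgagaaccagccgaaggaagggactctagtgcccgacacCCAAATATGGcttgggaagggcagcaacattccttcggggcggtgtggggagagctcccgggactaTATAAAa
The E-box lay 224 to 219 bases before the start of Myl1, 195 to 190 before Casq1 and 221 to 216 before Acta1. These are matches of letters and were not tested as sites.

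Other members of the list of skeletal muscle isoforms did not share the order. Of 12 measured, 2 were graded and passed (Myl1 and Casq1), 7 slopes were positive and 5 negative, and the median slope was 0.02, equal to that of all kept probe sets. Ryr1, the calcium release channel of skeletal muscle, had a slope of 0.68 ± 0.17 (adjusted p = 0.159). The summed signal of 12 skeletal muscle markers was graded, at 5856 to 7499 in IGF1R-dnPI3K, 13813 to 14561 in IGF1R and 19360 to 20878 in IGF1R-caPI3K. Without Myl1 and Casq1 the sum overlapped between the groups, at 2126 to 2759, 2264 to 2315 and 2388 to 2640. The fast-fibre genes Tnnt3, Tnni2 and Myh2 were at background on every array. Atrial markers summed to 4784 to 6925, 3767 to 4353 and 4339 to 5232, with the lowest group in the middle of the score. Most of this sum was Nppa, which is also among the cardiomyocyte markers, with means of 5430, 3077 and 3916. The order of the sum is thus largely that of Nppa. The atrial light chain Myl7 was at background on every array.

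**Figure D2:**
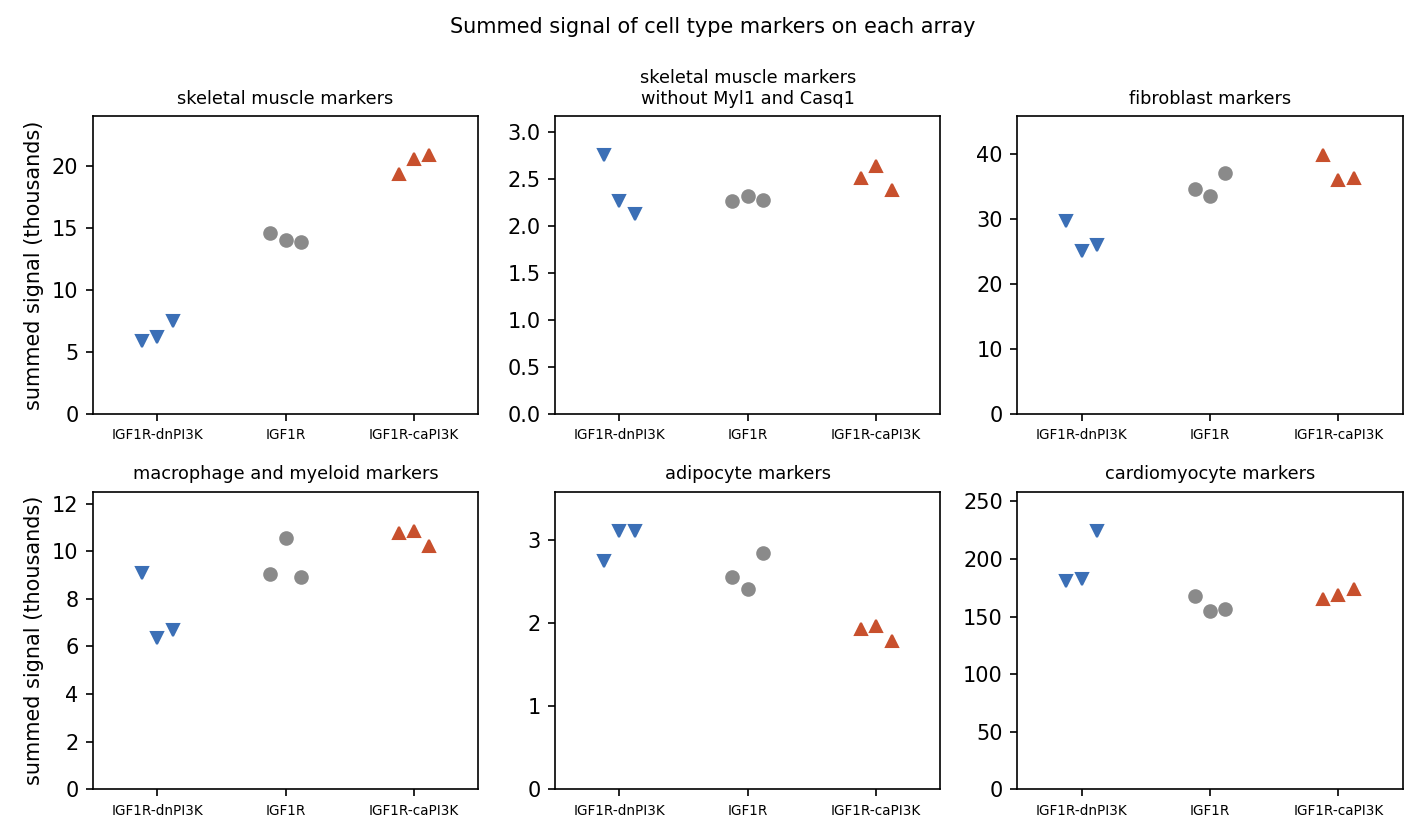
Summed signal, of the markers of each cell type on each array, with 1 point per array and axes from 0. The skeletal muscle sum rises in 3 separate levels and overlaps once Myl1 and Casq1 are left out; the adipocyte sum is lowest on the IGF1R-caPI3K arrays.

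The HSP70 chaperone genes Hspa1a and Hspa1l rose along the score. Hspa1a encodes the stress-induced form of the chaperone HSP70, which refolds damaged proteins. Its signal was 214, 125 and 194 on IGF1R-dnPI3K arrays, 389, 481 and 294 on IGF1R arrays and 703, 624 and 2146 on IGF1R-caPI3K arrays. The groups did not overlap, but IGF1R-caPI3K replicate 3 was far above the other two of its group, which gave that group a mean of 1158 ± 857 (SD, n = 3). Hspa1a rose with a slope of 1.25 ± 0.20 (adjusted p = 0.0382), 5.66-fold between the outer groups, and the 2 steps of 1.14 ± 0.41 and 1.36 ± 0.41 were of similar size. These steps share the IGF1R arrays.

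Hspa1l, a related HSP70 gene known mainly from the testis, read 323, 280 and 328 on IGF1R-dnPI3K arrays, 523, 370 and 505 on IGF1R arrays and 555, 659 and 648 on IGF1R-caPI3K arrays. It rose with a slope of 0.50 ± 0.08 (adjusted p = 0.0435) and was not graded under the other scalings. Hspa1a and Hspa1l are neighbours on chromosome 17 on opposite strands, with starts 547 bases apart. Hspa1b, a nearly identical copy of Hspa1a whose probes may share its RNA, had group means of 200, 421 and 976 and a slope of 1.12 ± 0.23 (adjusted p = 0.0806), with overlap between groups. Levels of Hspa1a and Hspa1b are uncertain to the extent that their probe sets share RNA.

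The window before Hspa1a, at chr17:34972157-34972406 on the minus strand of GRCm38.p6 (RefSeq), is shown for its heat shock element, the site of heat shock factors, searched as GAANNTTC and set in capitals 104 to 97 bases before the start.
Hspa1a promoter: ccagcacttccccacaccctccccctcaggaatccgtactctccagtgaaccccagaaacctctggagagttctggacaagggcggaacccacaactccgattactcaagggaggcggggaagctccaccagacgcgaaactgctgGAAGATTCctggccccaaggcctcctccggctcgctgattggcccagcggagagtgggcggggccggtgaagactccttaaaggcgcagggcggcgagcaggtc
The element's letters occurred in 6.69% of 32851 RefSeq windows of the same length. Among the 23 members graded higher with a window, Fhl1, Hspa1a and Uchl1 held it, and among the 17 graded lower Sh3bp5 did.

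The list of cytosolic heat shock proteins and cochaperones ran the same way as a whole. Of 18 measured genes, 17 had positive slopes, with a median of 0.26, beside 56.7% and 0.02 over all kept probe sets. Hspa1a alone was graded and alone passed, and 10 had an unadjusted p under 0.05, beside 10.3% of all kept probe sets. Hsph1, a nucleotide exchange factor for HSP70, had a slope of 0.60 ± 0.11 (adjusted p = 0.0651), and Dnajb4, an HSP40 cochaperone, 0.60 ± 0.11 (adjusted p = 0.0771). The median was 0.26 after quantile normalization, 0.23 with a common median and 0.14 when blocking on mouse number series. Chaperones of the endoplasmic reticulum had a median slope of 0.11 over 16 genes. None was graded or passed the slope test, and 2 had an unadjusted p under 0.05, beside the same 10.3%. Their median slope was -0.07 when blocking on mouse number series, with 6 of 16 slopes positive, and 0.03 without IGF1R-dnPI3K replicate 3. In this list IGF1R stood above the midpoint of the outer groups by a median of 0.41 in log2, beside 0.07 over all kept probe sets. Their signal thus followed the score less than it set IGF1R apart.

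Genes that make collagen formed another group of members. Col1a2 encodes a chain of type I collagen, the main fibre of cardiac scar and matrix. Its graded probe set read 1119, 812 and 958 on IGF1R-dnPI3K arrays, 1616, 1403.2 and 1563 on IGF1R arrays and 2306, 2112 and 1776 on IGF1R-caPI3K arrays. The groups were separate throughout, and it rose 2.15-fold between the outer groups (slope 0.55 ± 0.08, adjusted p = 0.0182). A second, brighter Col1a2 probe set, whose name marks a possible shared target, disagreed: its means were 2288, 2070 and 2320, and its slope was 0.01 ± 0.08.

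P4ha1 and P4ha2 encode the catalytic subunits of the enzyme that hydroxylates proline in new collagen chains. P4ha1 read 658, 408 and 461 on IGF1R-dnPI3K arrays, 735, 934 and 868 on IGF1R arrays and 1255, 943 and 1252 on IGF1R-caPI3K arrays. IGF1R-caPI3K replicate 2 was only just above the highest IGF1R array, and P4ha1 rose with a slope of 0.60 ± 0.10 (adjusted p = 0.0435). P4ha2 read 1534, 1126 and 1325, then 1978, 1982 and 1902, then 2372, 2052 and 2264 in the same order of groups. It was graded with a slope of 0.38 ± 0.07 (adjusted p = 0.0806), and its other kept probe set had a slope of 0.43 ± 0.10.

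Qsox1, a secreted sulfhydryl oxidase that forms disulfide bonds in matrix proteins, read 124, 115 and 53.8 on IGF1R-dnPI3K arrays, 192, 224 and 233 on IGF1R arrays and 252, 333 and 277 on IGF1R-caPI3K arrays, with a slope of 0.82 ± 0.16 (adjusted p = 0.0806). Its second probe set did not follow, with a slope of 0.01 ± 0.18. Of the 26 measured fibrillar collagen and matrix genes, read on their brightest probe sets, 23 had positive slopes and the median was 0.30. Over all kept probe sets 56.7% of slopes were positive and the median was 0.02. None of the 26 was graded and none passed, while 15 had an unadjusted p under 0.05, beside 10.3% of all kept probe sets. The larger slopes were those of Postn, a matricellular protein of activated fibroblasts, at 1.00 ± 0.23 (adjusted p = 0.116), Col1a1, the other type I collagen chain, at 0.89 ± 0.19 (adjusted p = 0.0975), and Col5a2, of type V collagen, at 0.81 ± 0.18 (adjusted p = 0.109). The list's median was 0.16 when blocking on mouse number series and 0.26 to 0.31 under the other scalings.

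Markers of fibroblasts and of myeloid cells moved beside these genes. The fibroblast sum over 12 markers, of which the matrix list holds several, was 25106 to 29741 in IGF1R-dnPI3K, 33544 to 37096 in IGF1R and 35933 to 39865 in IGF1R-caPI3K, so that only the last pair overlapped. The sum of 16 macrophage and myeloid markers was 6361 to 9092, 8907 to 10541 and 10197 to 10865, with the macrophage marker Aif1 at background. Median slopes were 0.26 for the fibroblast and 0.32 for the myeloid genes, and 0.10 and 0.08 when blocking on mouse number series. In both lists IGF1R stood above the midpoint of the outer groups by a median of 0.35 in log2. The part of these markers in the slopes of the collagen genes was not tested. In RNA from whole ventricles, fewer cells of a type and less RNA per cell cannot be told apart.

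Members close to the PI3K route itself were Inpp5j and Grb10, both higher toward IGF1R-caPI3K. Inpp5j, an inositol polyphosphate 5-phosphatase that acts on PI3K's substrate and product lipids, read 749, 782 and 777 on IGF1R-dnPI3K arrays, 1068, 815 and 930 on IGF1R arrays and 1336, 1285 and 1368 on IGF1R-caPI3K arrays. The outer groups were tight and the IGF1R group wide, and Inpp5j rose with a slope of 0.39 ± 0.07 (adjusted p = 0.0435); it was not graded under the other scalings. Grb10, an adaptor that binds the insulin and IGF1 receptors and restrains their signal, was graded at 303 ± 30.7, 387 ± 41.7 and 466 ± 35.2 (SD, n = 3 each), with a slope of 0.31 ± 0.08 (adjusted p = 0.140). Its other kept probe set had a slope of 0.32 ± 0.10, and Grb10 too was not graded under the other scalings.

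The listed genes of the route showed no common order. Of 19 insulin and PI3K signalling genes, 6 slopes were positive and 13 negative with a median of -0.03, and of 11 mTOR and S6 kinase genes 3 were positive and 8 negative with a median of -0.06. Over all kept probe sets 43.3% of slopes were negative and the median was 0.02. None of either list was graded or passed, and 3 and 2 had an unadjusted p under 0.05, beside 10.3% of all kept probe sets. Igf1r, the receptor gene carried by every mouse as a transgene too, had means of 1772, 903 and 1138 (slope -0.32 ± 0.13, adjusted p = 0.415), so its signal did not stand at one level across the score. The labels do not say whether its probes read the transgene. Pik3ca, a catalytic PI3K subunit, and Pik3r1, a regulatory one, had slopes of 0.04 (adjusted p = 0.908) and -0.00 (adjusted p = 0.996). FoxO targets, genes that FoxO factors switch on, had 14 negative and 4 positive slopes of 18 and a median of -0.15. No FoxO target was graded or passed, and 4 had an unadjusted p under 0.05, beside the same 10.3%. Blocking on mouse number series gave 11 negative and 7 positive slopes and medians of -0.05 for FoxO targets, 0.03 for insulin and PI3K signalling and 0.01 for mTOR and S6 kinase.

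Other members graded higher covered several roles. Wfs1, a membrane protein of the endoplasmic reticulum, read 2048, 2208 and 2271 on IGF1R-dnPI3K arrays, 2780, 2755 and 2463 on IGF1R arrays and 3564, 3528 and 3262 on IGF1R-caPI3K arrays. It rose with a slope of 0.33 ± 0.06 (adjusted p = 0.0435) and 1.59-fold between the outer groups, with no array out of place. Slc7a7, a transporter of cationic and neutral amino acids, was 28.0, 52.9 and 18.1, then 84.8, 146 and 138, then 153, 168 and 166. All 3 of its IGF1R-dnPI3K signals were within background, so its fitted slope of 1.05 ± 0.20 (adjusted p = 0.0732) depends on the floor set for low values.

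The remaining named members graded higher had slopes of 0.43 or less. Capg, which caps actin filaments, averaged 181, 252 and 326 (slope 0.43 ± 0.08, adjusted p = 0.0806), and Dipk2a, a secreted kinase-like protein, 1757, 2410 and 3035 (0.39 ± 0.07, adjusted p = 0.0613). Uchl1, a deubiquitinating enzyme, averaged 410, 537 and 647 (0.33 ± 0.07, adjusted p = 0.0806). Clu, the extracellular chaperone clusterin, averaged 2577, 3260 and 3767 with a slope of 0.28 ± 0.06 (adjusted p = 0.0997), and its other kept probe set had a slope of 0.42 ± 0.09. Cx3cl1, the chemokine fractalkine, averaged 483, 575 and 745 (0.31 ± 0.07, adjusted p = 0.122), while its other kept probe set read -0.09 ± 0.27. The sphingosine 1-phosphate receptor S1pr2 averaged 431, 522 and 592 (0.23 ± 0.06, adjusted p = 0.203). Ensa, Cryge, Tpgs2, Gle1, Pigs and Nmt1 made up the rest, with slopes of 0.14 to 0.23 and adjusted p from 0.243 to 0.433; of these, Ensa alone was graded after quantile normalization.

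**Figure D3:**
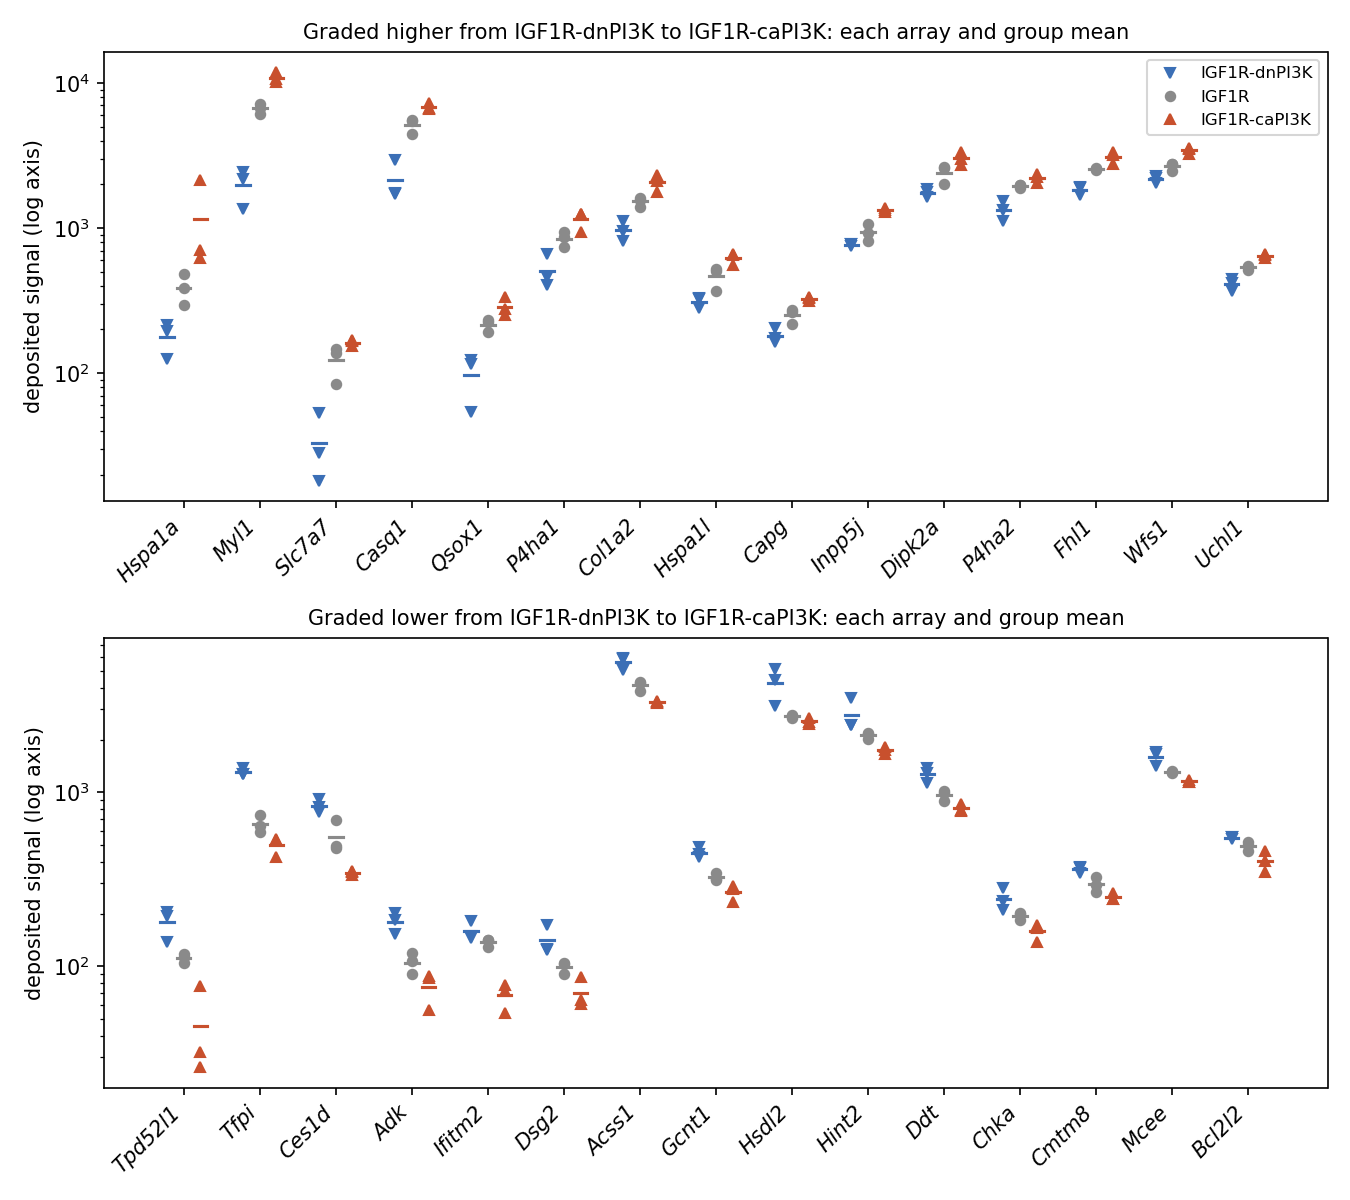
Deposited signal on a log axis of 15 genes graded higher (top) and 15 graded lower (bottom), with 1 point per array, short lines for group means and colours and shapes for the groups. Neighbouring groups do not overlap by the rule; the wide IGF1R-caPI3K spread of Hspa1a (624 to 2146) and the small gap of P4ha1 at 934 against 943 stand out.

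Among members graded lower, Tfpi had the largest slope of a named gene that passed. Tfpi encodes tissue factor pathway inhibitor, an anticoagulant protein of endothelial cells. Its signal was 1274, 1375 and 1277 on IGF1R-dnPI3K arrays, 643, 591 and 741 on IGF1R arrays and 425, 532 and 537 on IGF1R-caPI3K arrays. The IGF1R-dnPI3K group stood far above the others, and Tfpi fell with a slope of -0.70 ± 0.09 (adjusted p = 0.00884), a 2.64-fold difference between the outer groups. It remained graded after quantile normalization and not with a common median. Endothelial markers overlapped between the groups, with 2 positive and 9 negative slopes of 11 and a median of -0.06. Over all kept probe sets 43.3% of slopes were negative.

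Ces1d, a carboxylesterase that hydrolyses lipid esters and is abundant in fat and liver, read 820, 921 and 769 on IGF1R-dnPI3K arrays, 482, 696 and 492 on IGF1R arrays and 334, 352 and 347 on IGF1R-caPI3K arrays. Both steps were of like size, -0.60 ± 0.16 and -0.67 ± 0.16, and Ces1d fell with a slope of -0.64 ± 0.08 (adjusted p = 0.00884). Its other kept probe set had a slope of -0.75 ± 0.16 (adjusted p = 0.0997). The names of both probe sets mark a possible shared target, so their signals may not be of Ces1d alone. Adipocyte markers moved beside it: their sum was 2745 to 3108 in IGF1R-dnPI3K, 2403 to 2835 in IGF1R and 1788 to 1958 in IGF1R-caPI3K over 8 markers on the array, with Retn and Cidec at background. All 5 measured adipocyte genes had negative slopes, with a median of -0.30, beside 43.3% of all kept probe sets. The part of the adipocyte genes in the slope of Ces1d was not tested.

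Among the members graded lower, Acss1, which activates acetate to acetyl-CoA in mitochondria, read 5017, 5845 and 5877 on IGF1R-dnPI3K arrays, 4322, 3797 and 4235 on IGF1R arrays and 3273, 3282 and 3359 on IGF1R-caPI3K arrays. The 3 groups were apart, and Acss1 fell with a slope of -0.38 ± 0.06 (adjusted p = 0.0344), 1.68-fold between the outer groups. Mcee, an epimerase in the breakdown of propionate, averaged 1591 ± 155, 1308 ± 10.6 and 1157 ± 19.9 (SD, n = 3 each; slope -0.23 ± 0.06, adjusted p = 0.165). Hint2, a mitochondrial nucleotide hydrolase, averaged 2791, 2131 and 1745 (slope -0.33 ± 0.07, adjusted p = 0.103). Hsdl2, a dehydrogenase-like protein of peroxisomes and mitochondria, averaged 4235 ± 1008, 2733 ± 39.4 and 2555 ± 112 (slope -0.35 ± 0.09, adjusted p = 0.165), so that 86.0% of its span lay between IGF1R-dnPI3K and IGF1R. Supv3l1, a mitochondrial RNA helicase, averaged 474, 392 and 366 with a slope of -0.18 ± 0.07 (adjusted p = 0.386).

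Lists of energy metabolism were read beside these genes, and no gene of the oxidative phosphorylation and fatty acid lists passed the slope test. Of 52 oxidative phosphorylation genes 47 had negative slopes (median -0.14), and of 25 fatty acid oxidation genes 24 did (median -0.15), beside 43.3% of all kept probe sets. None was graded, and 5 and 9 had an unadjusted p under 0.05, beside 10.3% of all kept probe sets. IGF1R stood off the midpoint of the outer groups by a median of -0.19 in log2 for oxidative phosphorylation and -0.02 for fatty acid oxidation. Over all kept probe sets this departure was 0.07. It passed in 13 oxidative phosphorylation genes with IGF1R lower and in 6 with IGF1R higher, beside 3.86% and 4.48% of all kept probe sets. In these values that list did not fall evenly along the score. Over all probe sets the split of departures turned with the scaling, and the IGF1R arrays also differed in their CreX and Gapdh ratios. The part of these in the list's departures was not tested. Tricarboxylic acid cycle genes had 15 negative slopes of 18 (median -0.08). Glycolysis genes had 8 positive and 10 negative (median -0.05), which turned to 0.03 after quantile normalization and also when blocking on mouse number series. Cardiomyocyte markers moved beside these lists, with 9 negative slopes of 10 and a median of -0.10, and their part was not tested. The examples with the lowest adjusted p in the fatty acid list were Ucp3, a mitochondrial carrier linked to fat burning, at 595, 332 and 205 (slope -0.78 ± 0.16, adjusted p = 0.0806), and Cpt1a, which admits fatty acids to mitochondria, at 1257, 935 and 638 (slope -0.48 ± 0.10, adjusted p = 0.0978). The list medians depended on the processing: oxidative phosphorylation stood at -0.05 after quantile normalization and -0.03 when blocking on mouse number series, and fatty acid oxidation at -0.11 in both. Ribosomal protein genes, at -0.11, turned to 0.01 with that block, and their median departure was -0.27.

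Further members graded lower were dim or had small slopes. Tpd52l1, a coiled-coil protein of vesicle traffic, read 138, 205 and 194, then 114, 105 and 118, then 77.6, 32.2 and 26.3 (slope -1.01 ± 0.20, adjusted p = 0.0806), with the IGF1R-caPI3K mean within background. Ifitm2, an interferon-induced membrane protein, averaged 160 ± 20.5, 138 ± 6.63 and 68.4 ± 12.7 (SD, n = 3 each; slope -0.62 ± 0.14, adjusted p = 0.118), with the IGF1R mean only 16.7% of the way down. Dsg2, the cadherin desmoglein 2 that joins cardiomyocytes at desmosomes, read 125, 172 and 126, then 104, 90.6 and 103, then 61.1, 87.0 and 64.1. Its slope was -0.50 ± 0.14 (adjusted p = 0.203), and its other kept probe set had means of 700, 512 and 385 and a slope of -0.43 ± 0.08 (adjusted p = 0.0806).

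Gcnt1, which branches mucin-type sugar chains, averaged 451, 327 and 268, and Ddt, a tautomerase related to the cytokine MIF, 1270, 966 and 811, each with an adjusted p of 0.0806. Adk, adenosine kinase, was graded on a dim probe set with a slope of -0.63 ± 0.14 (adjusted p = 0.103), while its brightest one had -0.06. Bcl2l2, a survival protein of the Bcl2 family, averaged 550 ± 7.95, 492 ± 28.7 and 403 ± 55.3 (SD, n = 3 each; slope -0.23 ± 0.07, adjusted p = 0.250). Chka, which starts phosphatidylcholine synthesis, Cmtm8, Sh3bp5, Figla and the actin-severing protein Dstn had slopes of -0.31 to -0.18 and adjusted p from 0.195 to 0.554. Chka of these was graded under all 3 scalings. Figla was kept only through its IGF1R-dnPI3K arrays, at 103.8, 102.6 and 102.2, with every other array at 67.2 to 81.5. Its membership thus rests on the signal filter as well. With a signal above 100 required on all 9 arrays, 30 probe sets were graded higher and 16 lower, of 6458 kept.

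The probe sets without a single gene name included the strongest member. Probe set 95407_at read 2207, 1562 and 1128 on IGF1R-dnPI3K arrays, 413, 337 and 370 on IGF1R arrays and 213, 142 and 157 on IGF1R-caPI3K arrays. The groups were far apart, and it fell with a slope of -1.61 ± 0.14 (adjusted p = 0.000924), 9.35-fold between the outer groups. It was also the 1 probe set that passed when blocking on mouse number series (slope -1.57, adjusted p = 0.0463). Probe set 100566_at, whose annotation lists several genes, read 1112, 1238 and 1587, then 2323, 3298 and 2386, then 3758, 4082 and 4248, and rose with a slope of 0.82 ± 0.09 (adjusted p = 0.00399). Probe set 102808_at averaged 578, 827 and 1115 and rose with a slope of 0.48 ± 0.07 (adjusted p = 0.0324). Of the 53 members, 7 had no single gene name. The names of 5 members graded higher and 2 graded lower mark a possible shared target, among them those read for Fhl1, Cryge, Tpgs2, Ces1d and Hsdl2.

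Within the graded members the IGF1R group stood nearer the IGF1R-caPI3K end. The IGF1R mean lay at a median of 60.8% of the log2 span from IGF1R-dnPI3K in the 32 graded higher (22.3% to 78.8%) and at 61.1% in the 21 graded lower (16.7% to 86.0%). It was past the midpoint in 24 of 32 and 14 of 21. Inpp5j at 35.1%, Wfs1 at 43.9% and Hspa1a at 45.4% had the larger fitted step above IGF1R, and Casq1 at 75.8%, Qsox1 at 75.3% and Tfpi at 71.2% had it below. For Wfs1 (0.29 ± 0.10 and 0.37 ± 0.10) and Hspa1a (1.14 ± 0.41 and 1.36 ± 0.41), the steps differed by less than their SE. These positions are descriptions of members chosen for having IGF1R inside the span. Most IGF1R-dnPI3K mice came from a mouse number series without the other groups. Genotype and series therefore cannot be told apart in most of the step below IGF1R.

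**Figure D4:**
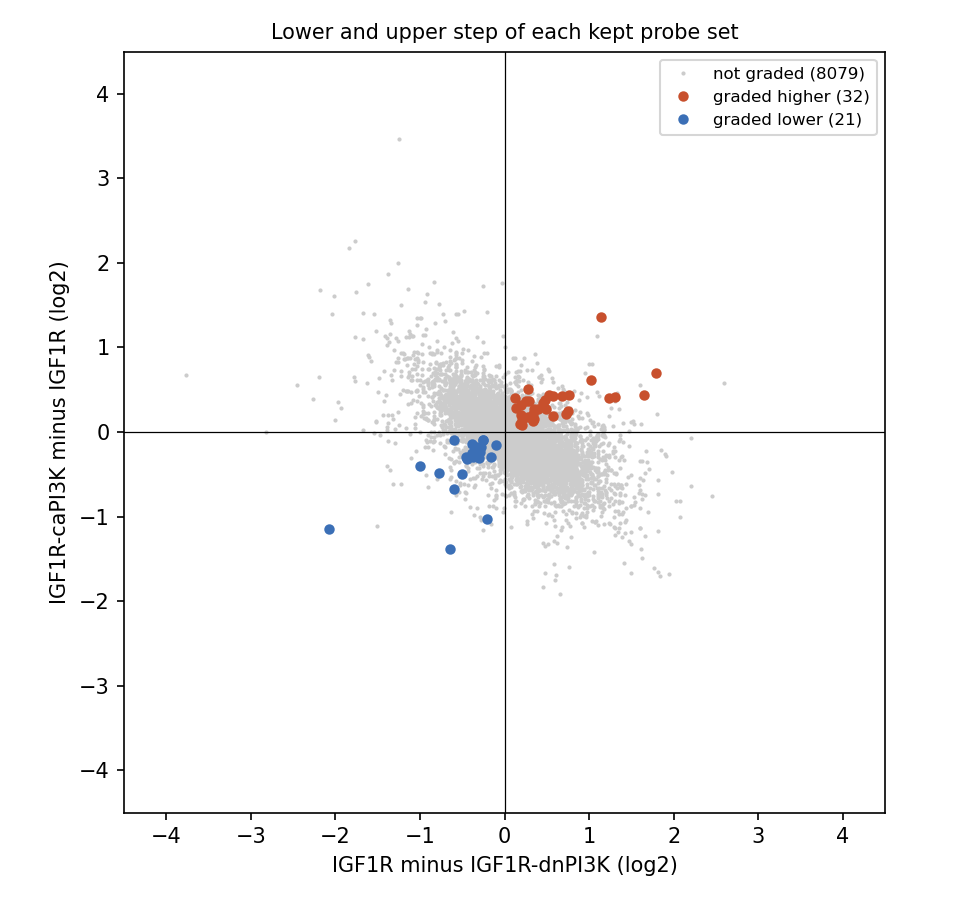
Each kept probe set by its difference of IGF1R minus IGF1R-dnPI3K (horizontal) and IGF1R-caPI3K minus IGF1R (vertical), in log2. Both axes use the same IGF1R arrays with opposite sign, which by itself tilts the grey cloud; the 32 and 21 graded probe sets lie in the quadrants where both steps have the same sign.

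Departure from the straight line, IGF1R minus the midpoint of the outer groups, was tested for all probe sets in the same way. It passed in 678 of 8132 (8.34%), 364 with IGF1R higher (4.48%) and 314 with IGF1R lower (3.86%), against 17 slopes. Scaling to a common median turned this split to 185 and 597, so its direction depends on the scaling. Without IGF1R replicates 1, 2 and 3 the 678 became 8, 24 and 2, so the count depends on each IGF1R array. None of the 53 graded members passed and 4 had an unadjusted p under 0.05; a rule that places IGF1R between the others limits how far they can depart. Igf1r (-0.65, adjusted p = 0.0209) and Nppa, the gene of atrial natriuretic peptide (-0.57, adjusted p = 0.0427; means 5430, 3077 and 3916), both passed with IGF1R lowest. The CreX and Gapdh ratios set the same IGF1R arrays apart, and their part in these departures cannot be told apart from that of the genotype.

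Stress markers of the heart other than Acta1 and Fhl1 were not graded. Nppb, the gene of brain natriuretic peptide, had a slope of 0.26 ± 0.10 (adjusted p = 0.368), and Nppa one of -0.23 (adjusted p = 0.579). The fetal myosin heavy chain Myh7 had 0.12 (adjusted p = 0.804), the adult Myh6 -0.17 (adjusted p = 0.429) and the calcium pump Atp2a2 -0.05 (adjusted p = 0.779). The names of the Myh7 and Atp2a2 probe sets mark a possible shared target. Their slopes may therefore not be of these genes alone. Of 15 measured fetal and stress genes, 10 slopes were positive with a median of 0.13, beside 56.7% and 0.02 over all kept probe sets. On the brightest probe sets none passed the slope test, while 8 had an unadjusted p under 0.05, against 10.3% of all. The median was 0.20 after quantile normalization, 0.10 with a common median and 0.12 when blocking on mouse number series.

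**Figure D5:**
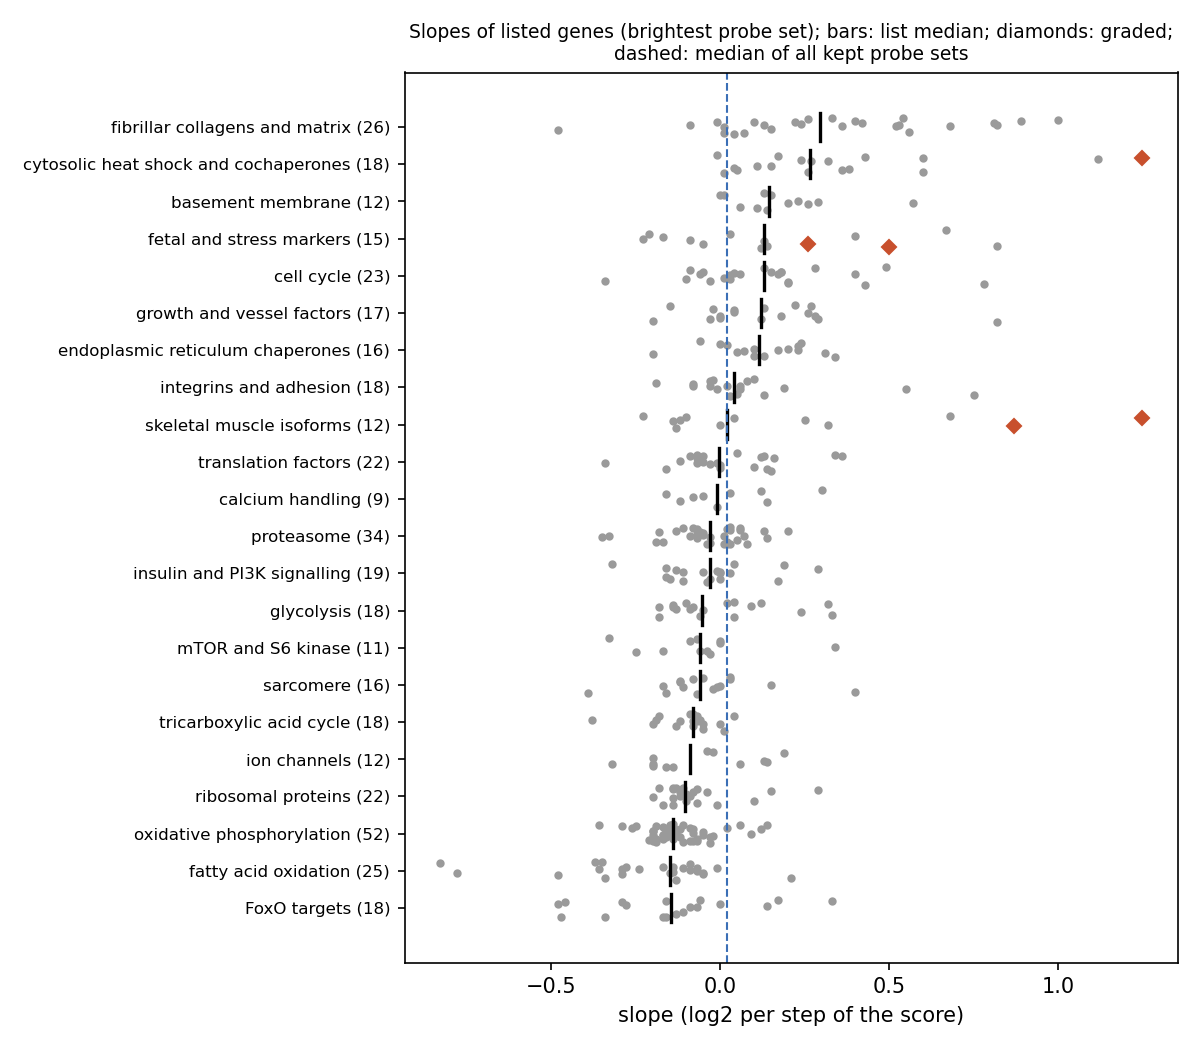
Slope of each measured gene, in log2 per step of the score, by gene list, with the number of genes in parentheses; bars are list medians, diamonds graded genes and the dashed line the median of all kept probe sets (0.02). The matrix and heat shock lists lie to the right (0.30 and 0.26) and FoxO targets, fatty acid oxidation and oxidative phosphorylation to the left (-0.15, -0.15 and -0.14).

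Over the members as a whole, the motif search found few shared letters. RefSeq windows of 250 bases were matched for 23 of 26 genes graded higher (29 windows) and 17 of 19 graded lower (22 windows), and both strands were searched. The E-box CAGCTG occurred in 13% of the 32851 windows of that length, in Acta1, Casq1, Myl1 and Slc7a7 among the 23, and in none of the 17. The CArG box occurred in 1.47% of windows and in Acta1 and Fhl1. The TATA box occurred in 12.4% of windows, in 4 of 23 and in 3 of 17, and the FoxO letters GTAAACA in 3.17% of windows and in none of the members' windows. A window without a match says nothing of the factor.

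The edge of the rule was narrow. The smallest gap between neighbouring groups among members was 0.00167 on the log2 scale for Ensa and 0.00252 for Cx3cl1 among those graded higher, and 0.00417 for Supv3l1 and 0.00593 for Sh3bp5 among those graded lower. Lsp1 and Adgrl1 missed the rising order by overlaps of -0.000425 and -0.00194, and Lrpprc missed the falling one by -0.00312. Arhgap9 also missed the falling one, through a tie at the floor. Of 9 genes graded higher with other kept probe sets, 10 of 11 such probe sets had the same sign, beside 56.7% positive slopes over all kept probe sets. The 2 that were graded are the paired Fhl1 probe sets counted from each side, whose sign the rule fixes. Those of Col1a2 and Qsox1 had slopes of only 0.01. Of 4 genes graded lower, 5 of 5 had the same sign, beside 43.3% negative over all, and none was graded. The other Adk slopes were -0.06 ± 0.10 and -0.21 ± 0.26.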

How the data were processed

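RNA from both ventricles of 9 mice was measured on 1 array per mouse, with 3 mice per group taken from the sample titles. The deposited values are linear intensities, 1 for each of 12488 probe sets on every array, and 66 of the probe sets are controls. Each array has the same 2% trimmed mean, 500, so the authors had scaled them; how probes were summarised is not given in the sources used, which limits what is known of low signals. Values were raised to a floor of 32.3, their 20th percentile, and taken to log2. Non-control probe sets with a deposited intensity above 100 on at least 3 arrays were kept (8132), of which 0.475% of values lay at or below the floor. After the floor, a tie counted as overlap.

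Slopes and departures were fitted with limma 3.58.1 in R 4.3.3 (statmod 1.5.0), with variances that follow the mean signal, and Benjamini-Hochberg adjusted over all 8132 probe sets at 0.05. The slope's residual includes any departure from the line. The labels do not say whether mice came from separate litters, so p-values measure only the spread between these mice. Signals are means ± SD of the deposited intensity, and slopes are log2 estimates ± SE. Gene names came from the platform annotation, with 1 symbol for 10833 probe sets, several for 396 and none for 1193. A listed gene with several probe sets was read on its brightest. Of 701 list entries, 118 were not matched on the array.

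The graded members, the gene lists and the motifs were chosen with earlier results of these data known. The text names up to 15 graded genes in each direction, those that passed by slope and then those with the lowest p, up to 4 graded genes per list, the genes with the largest departures, a fixed set of receptor, PI3K and stress genes and those at the edge of the rule. Other members, list genes with high slopes and unnamed probe sets were named after their values were seen.

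Alternatives were other scalings, floors, filters and variance models, array weights, other spacings of the score, a fit around group means, the mouse number series as a block, probe sets without shared-target names and each array left out in turn. The fit was tested on simulated data with known slopes. The number of arrays limits the precision. Promoter windows came from RefSeq on GRCm38.p6.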

Additional observations from a re-analysis of the deposited data

How the results depend on the processing

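Slopes passing higher and lower were 13 and 4. Of the settings that moved them by over 1.5 times, array weights gave 22 higher, scaling to a common median 8, one prior variance 2 and no filter 4. A spread taken around group means, which leaves departure out of the error, gave 59 and 40. With the score at -0.5, 0 and 1 the counts were 0 and 0 (666 unadjusted), with -1, 0 and 0.5 they were 43 and 25, and when blocking on mouse number series 0 and 1 (519 unadjusted). Departures with IGF1R higher and lower, 364 and 314, were 825 and 633 with array weights, 145 and 141 without a filter, 131 and 105 with one prior variance, 185 and 597 with a common median and 0 and 2 with the block. Beyond the fewer genes or the changed error named, the cause was not tested. Leaving out 1 array gave 2 to 32 slopes higher, 1 to 17 lower, 0 to 796 departures higher and 2 to 560 lower. It gave 45 to 81 graded higher and 30 to 59 graded lower, 284 to 578 with IGF1R-caPI3K in the middle and 49 to 194 with IGF1R-dnPI3K in the middle, since fewer arrays have to be in order. Of 881 values of 39 named slopes, 104 lost their call and 19 gained one. The sign, taken before rounding, turned in 9, none past the threshold: without 1 array, Pik3ca ran from -0.04 to 0.13, Pik3r1 from -0.15 to 0.11 and Myh7 from -0.01 to 0.32. Atp2a2 stood at 0.04 after quantile normalization, and Pik3r1 at 0.05 with array weights and 0.35 with the block. No paired analysis was possible because each mouse number belongs to 1 mouse and replicates were numbered in deposit order. Probe sets near background, such as Slc7a7 and Tpd52l1, give slopes limited by the floor.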

Other observations

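The genes with the largest fitted departures from a straight line were not graded. Dnajb9, a chaperone of the endoplasmic reticulum, averaged 743 in IGF1R-dnPI3K, 2393 in IGF1R and 700 in IGF1R-caPI3K. Dmd, which encodes dystrophin, averaged 93.1, 303 and 98.0 in the same order. Sucla2, a subunit of the tricarboxylic acid cycle enzyme succinyl-CoA ligase, departed by 1.82 on the log2 scale, and Ccni by 1.58 and Macroh2a1 by 1.49. With IGF1R lowest, Txnrd3, a thioredoxin reductase, averaged 722, 216 and 1045. Rps6kb2, an S6 kinase downstream of mTOR, averaged 395, 92.3 and 275. Tbc1d10a averaged 12123, 911 and 1438. For Hus1, Aaas and Nup188 the IGF1R means of 26.9, 29.9 and 42.7 were within background, below 63.9, so the floor sets the size of their departures and their rank. The IGF1R-dnPI3K mean of Map6, 53.8, was within background too. All 12 passed limma's test of departure after Benjamini-Hochberg adjustment. Over all probe sets, only 8, 24 and 2 passed it without IGF1R replicates 1, 2 and 3. The names of the probe sets for Txnrd3, Tbc1d10a, Sucla2, Ccni, Macroh2a1 and Aaas mark a possible shared target, so their signals may not be of these genes alone. The IGF1R arrays also differed in their CreX and Gapdh ratios, and the part of this in these genes cannot be told apart from that of the genotype.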
